A study of Homo sapiens with 21 samples.

Results

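This is an account of 10 genes that set the pace of the G1 phase of the cell cycle, followed through all 7 groups of a K562 RNA-seq series. The genes are the D-type cyclins CCND2 and CCND3, the E-type cyclins CCNE1 and CCNE2, the kinases CDK4 and CDK2, the CDK inhibitors CDKN1A, CDKN1B and CDKN2C, and cyclin G1 (CCNG1). They were chosen by name and not by a rule on their values, but with earlier results of these data known. Each was matched to its Ensembl id. All 10 were found among the 61541 genes of the gene table and among the 57300 ids of the exon bin files. In the bin files 9 of the 10 had an id of their own. The CCND2 bins stood under an id that joins CCND2 with TIGAR and a further overlapping gene, so bin values given below for CCND2 are those of the joined id. All 10 genes passed the filter on low counts in every comparison.

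K562 is an established human erythroleukaemia line, kept in RPMI medium with 10% serum per the labels' protocols. The series held 21 libraries in 7 groups of 3. Cells labelled MYB overexpression and NMYB overexpression were set against cells with an empty vector. The design text mentions an N-terminally truncated MYB beside MYB, and the labels do not say what NMYB stands for. Cells that overexpressed one of 2 enhancer RNAs (eRNAs) from an enhancer 34 kb upstream of MYB, labelled 34kn and 34kp, were each set against 3 control libraries of their own. The labels say neither what the eRNA controls received, nor whether the lines were clones, nor whether replicates were separate cultures. The p-values therefore speak of the spread between libraries, which may be technical.

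In G1, D-type cyclins bind CDK4 or CDK6 and E-type cyclins bind CDK2, and these kinases phosphorylate the RB protein, which frees E2F transcription factors to switch on S-phase genes. CDKN2C (p18) belongs to the INK4 inhibitors, which bind CDK4 and CDK6, while CDKN1A (p21) and CDKN1B (p27) bind cyclin-CDK complexes. CDKN1A and CCNG1 are both known as targets of p53, and K562 cells are known to lack functional p53. MYB is a transcription factor of blood progenitors that binds DNA sites with the core AACTG or AACGG.

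A library of the MYB experiment held 16552237 to 24462819 gene counts, and a library of the eRNA experiments 36563252 to 41243796 bin counts. Levels are given in CPM, the count scaled to library size after TMM normalization. The bin counter is not stated, and a read that spans several bins may be counted in each. Levels of the gene table and of the bin sums are therefore not comparable with each other. All 10 erythroid markers were above 1 CPM in the gene table. In the libraries labelled MYB overexpression the MYB gene itself stood at 231, 228 and 222 CPM, against 216, 210.3 and 219 CPM with empty vector (log2 fold change 0.08, adjusted p = 0.230). The label was thus not borne out by a detectable rise of the MYB transcript, and in the libraries labelled NMYB overexpression it stood at 215, 202 and 217 CPM. The summed level of 5 lymphoid markers, of which 2 were above 1 CPM and MS4A1 was at 0 throughout, was 16.2 to 17.6 CPM in the MYB libraries and 19.4 to 20.9 CPM in the NMYB libraries, against 35.9 to 37.1 CPM with empty vector. The summed level of 10 erythroid markers was 2074 to 2105 CPM in the MYB libraries and 2143 to 2159 CPM in the NMYB libraries, against 2390 to 2397 CPM with empty vector. Its members did not move one way: TFRC fell to 968 ± 28.6 CPM in MYB cells and 921 ± 33.3 CPM in NMYB cells, against 1202 ± 24.1 CPM with empty vector, and NFE2 fell in both, while KLF1 rose in both (log2 fold changes 0.26 and 0.52, adjusted p = 0.0454 and 8.0e-04). GATA1 and HBE1 fell in MYB cells and HBG1 rose in NMYB cells. The summed level of 6 monocyte and granulocyte markers, of which 2 were above 1 CPM and 0 were at 0, was 34.1 to 38.8 CPM in the MYB libraries and 38.8 to 41.1 CPM in the NMYB libraries, against 25.4 to 30.4 CPM with empty vector, and LYZ rose in both (log2 fold changes 0.46 and 0.55). The 6 fibroblast markers, with LUM at 0, summed to 8.82 to 9.36 CPM in the MYB libraries. Their sum was 9.39 to 10.2 CPM in the NMYB libraries, against 11.5 to 11.9 CPM with empty vector. COL1A1 fell in both overexpression groups. COL1A2, the most abundant of these markers, did not pass the test in either (log2 fold changes -0.009 in MYB cells and 0.13 in NMYB cells). The 5 epithelial markers, of which 1 (EPCAM) was above 1 CPM, summed to 55.6 to 59.1 CPM in the MYB libraries. Their sum was 58.0 to 64.6 CPM in the NMYB libraries, against 61.4 to 66.7 CPM with empty vector. EPCAM did not pass the test in either (log2 fold changes -0.16 in MYB cells and -0.06 in NMYB cells). The part of these shifts in the results below was not tested.

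Promoter sequences from RefSeq (GRCh38.p14) are shown for the members that passed a test in the MYB experiment and have a window there, with the exception of CCND3, whose windows held no match. Each window runs from 250 bases before to 50 bases after a transcript start, 5′ to 3′ on the gene's strand, and capitals mark the MYB core letters AACTG or AACGG on either strand. The windows are chr1:50960495-50960794 (plus strand) for CDKN2C, chr5:163437321-163437620 (plus) for CCNG1, chr6:36678464-36678763 (plus) for CDKN1A and chr12:57752261-57752560 (minus) for CDK4.
CDKN2C: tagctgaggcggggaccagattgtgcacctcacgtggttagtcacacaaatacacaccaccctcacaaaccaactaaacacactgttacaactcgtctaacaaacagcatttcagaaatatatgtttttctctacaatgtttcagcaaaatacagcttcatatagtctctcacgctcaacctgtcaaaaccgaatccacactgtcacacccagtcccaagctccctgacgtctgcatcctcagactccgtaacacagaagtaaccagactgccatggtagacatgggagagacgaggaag
CCNG1: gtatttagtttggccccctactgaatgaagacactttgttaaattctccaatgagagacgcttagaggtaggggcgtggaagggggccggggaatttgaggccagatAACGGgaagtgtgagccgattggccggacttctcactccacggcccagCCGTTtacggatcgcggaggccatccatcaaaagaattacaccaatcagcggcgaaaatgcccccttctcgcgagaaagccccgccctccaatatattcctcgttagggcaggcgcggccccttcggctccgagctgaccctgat
CDKN1A: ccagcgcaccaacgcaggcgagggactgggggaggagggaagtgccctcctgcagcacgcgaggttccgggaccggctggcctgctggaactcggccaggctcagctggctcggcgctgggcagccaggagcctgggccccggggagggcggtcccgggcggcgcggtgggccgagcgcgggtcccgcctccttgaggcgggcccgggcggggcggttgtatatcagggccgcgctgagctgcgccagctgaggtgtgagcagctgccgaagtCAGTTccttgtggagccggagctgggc
CDK4: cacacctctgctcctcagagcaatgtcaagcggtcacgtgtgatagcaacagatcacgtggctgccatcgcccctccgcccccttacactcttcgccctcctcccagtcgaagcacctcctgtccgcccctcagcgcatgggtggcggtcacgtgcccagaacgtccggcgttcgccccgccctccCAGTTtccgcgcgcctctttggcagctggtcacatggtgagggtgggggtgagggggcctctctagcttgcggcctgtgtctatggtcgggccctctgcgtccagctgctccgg
The CCNG1 window holds 2 matches to AACGG, those of CDKN1A and CDK4 hold 1 match to AACTG each, and the CDKN2C window holds 0. Windows of 7 members were searched, with CCNE1 as the only E-type cyclin, and the other members are not covered. A match was present in 6 of the 12 windows searched, among them the 2 other CDKN2C windows. Of all 35116 RefSeq windows of this length, 52.4% hold such a match. The E2F strings TTTCCCGC and TTTGGCGC, searched on both strands, were in 0 of the 12 windows and in 2.27% of all windows.

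In cells labelled MYB overexpression, the INK4 inhibitor CDKN2C rose 1.39-fold, while cyclin G1 and the inhibitor CDKN1A each fell to about 0.77 of the empty-vector level. In cells labelled NMYB overexpression, CDKN2C rose 1.48-fold and CCNG1 fell to 0.795 of the empty-vector level, CDK4 and CCND3 rose by 1.13-fold and 1.09-fold, and CDKN1A did not pass the test. Of the 10 members, 3 passed the test in MYB cells (1 higher, 2 lower), in a comparison in which 22.3% of all 15823 genes tested did (9.62% higher, 12.7% lower). In NMYB cells 4 passed (3 higher, 1 lower), against 24.9% of all genes (12.6% higher, 12.4% lower). These counts are near the background of all genes, so the account rests on the values of the single genes and not on their number. The median log2 fold change of the members was 0.03 in MYB cells and 0.08 in NMYB cells, against 0.01 over all genes in both. The empty-vector libraries are shared by both comparisons. In bulk RNA, a change in some of the cells and a smaller change in every cell cannot be told apart.

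**Figure D1:**
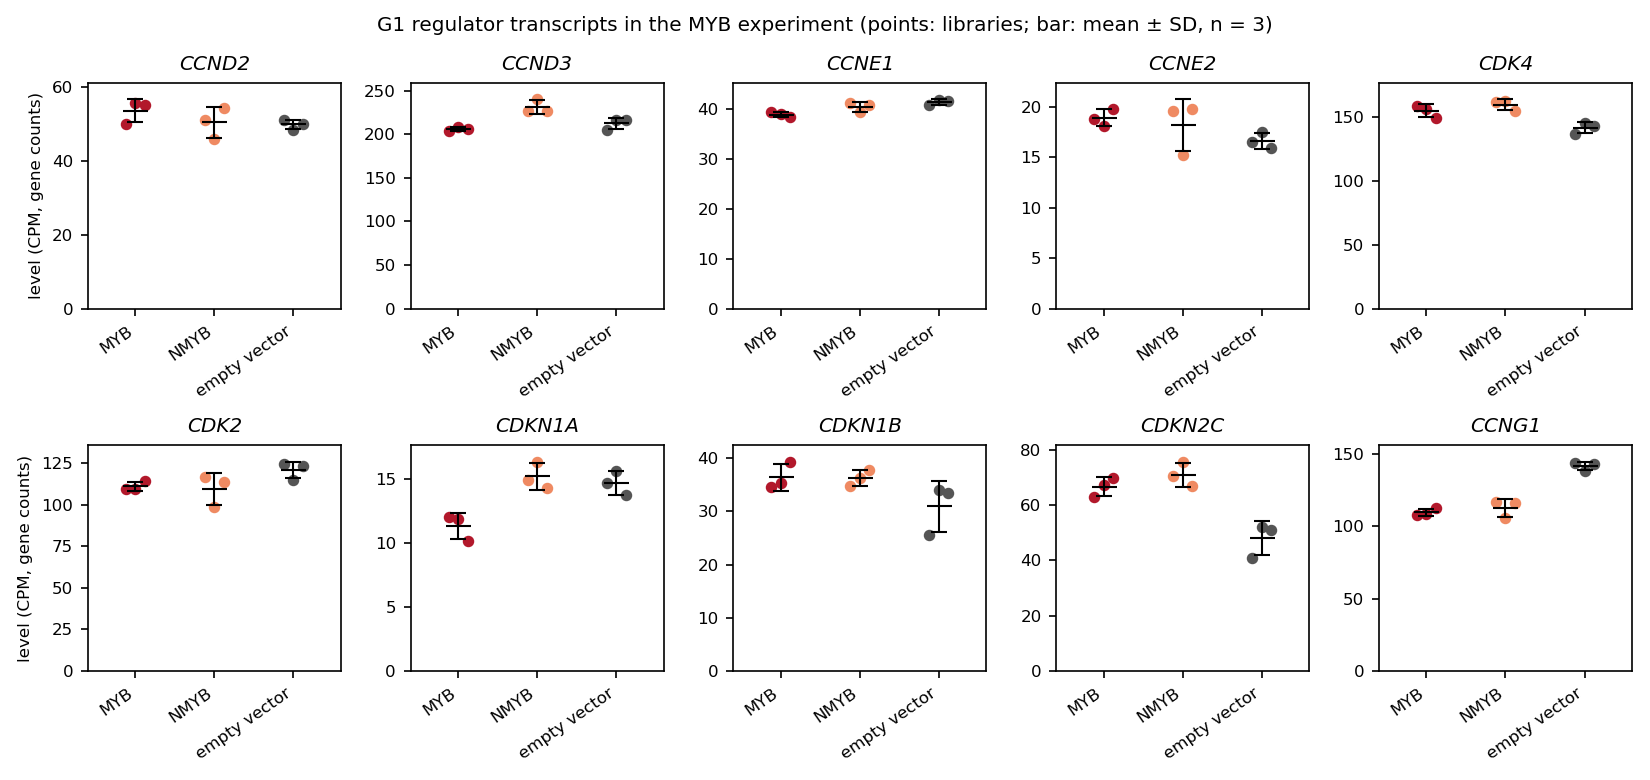
Level of each member (CPM of gene counts, vertical axes from 0) in each library of the MYB experiment, with the mean and SD of 3 libraries as bars. The CDKN2C points of MYB and NMYB cells lie above all 3 empty-vector points, the CCNG1 points lie below them, and the CDKN1A points lie low in MYB cells alone.

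CDKN2C lies at chr1:50960745-50974633 (plus strand; GRCh38, GENCODE 29, as for all genes here). It stood at 62.9, 67.3 and 69.7 CPM in MYB libraries and at 70.3, 75.6 and 66.9 CPM in NMYB libraries, against 40.8, 52.0 and 51.1 CPM with empty vector. All 6 overexpression libraries were above the highest empty-vector library, and empty vector 1 was the lowest of the 9. MYB cells had a log2 fold change of 0.48 (SE 0.0781, adjusted p = 2.47e-04) and NMYB cells one of 0.57 (SE 0.0785, adjusted p = 5.0e-05). NMYB cells against MYB cells gave a fold of 1.06 with a 95% interval of 0.953 to 1.19, which did not pass the test. CDKN2C passed in both comparisons with empty vector under every alternative setting and with each library left out in turn, with log2 fold changes of 0.39 to 0.54 in MYB cells and 0.46 to 0.62 in NMYB cells when a library was left out.

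CCNG1, at chr5:163437569-163446151 (plus strand), moved the other way. This cyclin is known to bind the phosphatase PP2A and to take part in the p53 response. CCNG1 stood at 108, 108 and 112 CPM in MYB libraries and at 117, 105 and 116 CPM in NMYB libraries, against 144, 138 and 143 CPM with empty vector. The highest overexpression library lay well below the lowest empty-vector library. Against empty vector it had a log2 fold change of -0.37 (SE 0.0498, adjusted p = 2.2e-05) in MYB cells and of -0.33 (adjusted p = 9.0e-05) in NMYB cells, and both calls held with each library left out in turn. NMYB against MYB gave a fold of 1.03 with a 95% interval of 0.957 to 1.11.

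CDKN1A, the p21 inhibitor at chr6:36676460-36687339 (plus strand), was the member in which the cells labelled MYB and NMYB differed. It stood at 14.9, 16.4 and 14.4 CPM in NMYB libraries and at 12.04, 11.9 and 10.2 CPM in MYB libraries, with 14.7, 15.7 and 13.8 CPM with empty vector. The MYB libraries were the 3 lowest of the 9, and the NMYB and empty-vector libraries overlapped. The log2 fold change was -0.37 in MYB cells (SE 0.0916, adjusted p = 0.00685), 0.05 in NMYB cells (adjusted p = 0.758, fold 95% interval 0.906 to 1.18) and 0.41 for NMYB against MYB cells (SE 0.0912, adjusted p = 0.0359). It was the 1 member called in the comparison of NMYB with MYB cells, in which 1.14% of all genes were called (0.518% higher). The call against empty vector held with each library left out. The call of NMYB against MYB was lost in 5 of the 6 fits that leave out a library, with adjusted p of 0.0616 (without MYB 2), 0.0630 (without NMYB 2), 0.0893 (without NMYB 1), 0.142 (without MYB 1) and 0.162 (without MYB 3), while the log2 fold change stayed between 0.35 and 0.46 there.

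CDKN1B, the p27 inhibitor at chr12:12715058-12722371 (plus strand), stood at 34.5, 35.3 and 39.3 CPM in MYB libraries and at 34.7, 36.4 and 37.7 CPM in NMYB libraries, against 25.5, 34.1 and 33.5 CPM with empty vector. Neither group of overexpression libraries overlapped with empty vector, where library 1 stood far below the other two. The log2 fold change was 0.23 in both comparisons and did not pass the test (adjusted p = 0.0726 in MYB cells and 0.0761 in NMYB cells). Without empty vector 2 it passed in both, with adjusted p = 0.0314 and 0.0388. In MYB cells CDKN1B also passed with no filter (adjusted p = 0.0205). The INK4 genes CDKN2A and CDKN2B, which K562 cells are known to have lost, had 0 counts in all 21 libraries, where a count of 0 allows a level of up to 0.181 CPM in the gene table and 0.0821 CPM in the bin sums.

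CDK4, the partner kinase of the D-type cyclins at chr12:57747727-57756013 (minus strand), stood at 159, 156 and 149 CPM in MYB libraries and at 162, 162 and 154.5 CPM in NMYB libraries, against 136, 145 and 143 CPM with empty vector. Both overexpression groups lay above the empty-vector libraries without overlap. The log2 fold change was 0.13 in MYB cells (SE 0.0466, adjusted p = 0.0512), just outside the threshold, and 0.17 in NMYB cells (SE 0.0468, adjusted p = 0.0104). The NMYB call was lost without empty vector 1 (adjusted p = 0.0597) and without NMYB 1 (adjusted p = 0.0509), and CDK4 passed in MYB cells without MYB 3 (adjusted p = 0.0454).

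CCND3, at chr6:41934933-42050357 (minus strand), was the more abundant of the D-type cyclins among the members. It stood at 227, 240.2 and 226 CPM in NMYB libraries and at 204, 208 and 206 CPM in MYB libraries, with 205, 216 and 216 CPM with empty vector. NMYB libraries were above the other 6. The log2 fold change of NMYB cells against empty vector was 0.12 (SE 0.0434, adjusted p = 0.0464), and this call was lost in all 6 fits that leave out a library, with adjusted p of 0.0561 to 0.193. Against MYB cells it was 0.17 (adjusted p = 0.0616), and there CCND3 passed with DESeq2 (adjusted p = 0.0407). Its adjusted p was 0.0107 to 0.146 over the alternative settings and 0.0618 to 0.245 with a library left out. CCND2, at chr12:4273772-4305350 (plus strand), averaged 53.6 ± 3.09 CPM in MYB cells and 50.4 ± 4.23 CPM in NMYB cells, against 49.8 ± 1.28 CPM with empty vector (SD, n = 3 each), and the groups overlapped.

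The E-type cyclins and CDK2 did not pass the test in the MYB experiment. CCNE1 (chr19:29811898-29824308, plus strand) stood at 38.3 to 39.4 CPM in MYB libraries and 39.3 to 41.1 CPM in NMYB libraries, against 40.7 to 41.7 CPM with empty vector. CCNE2 (chromosome 8) stood at 18.1 to 19.8 CPM in MYB libraries and 15.2 to 19.7 CPM in NMYB libraries, against 15.9 to 17.5 CPM with empty vector. CDK2 (chr12:55966769-55972784, plus strand) stood at 109 to 114 CPM in MYB libraries and 98.4 to 116 CPM in NMYB libraries, against 115 to 124 CPM with empty vector. For these 3 genes the log2 fold changes of MYB cells were -0.09, 0.19 and -0.12, with adjusted p of 0.266, 0.160 and 0.151, and MYB cells did not overlap with empty vector in any of them. Those of NMYB cells were -0.03, 0.14 and -0.14, with adjusted p of 0.712, 0.314 and 0.0874. In NMYB cells CDK2 passed with no filter (adjusted p = 0.0195) and without NMYB 1 (0.0426), and CCNE2 passed without NMYB 2 (0.0325). Over their alternatives the adjusted p ranged up to 0.304 for CDK2 and 0.676 for CCNE2. In all, 8 of the 10 members did not overlap between MYB and empty-vector libraries, a state shared by 40.5% of all genes. Of the members, 5 did not overlap between NMYB and empty vector (38.9% of all genes) and 2 between NMYB and MYB (22.8%).

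**Figure D2:**
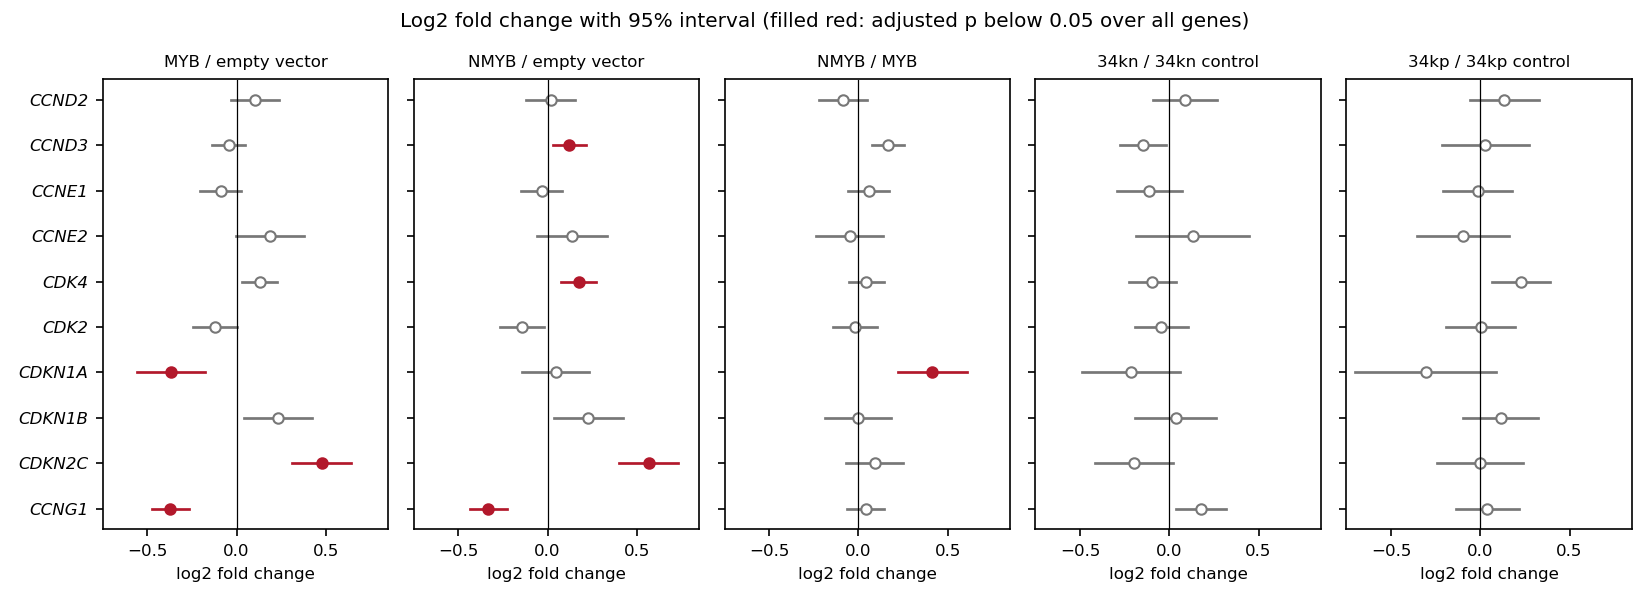
Log2 fold change of each member (horizontal axes) with its 95% interval in 5 comparisons, overexpression over its control or NMYB over MYB. Filled red points passed the test over all genes. CDKN2C lies to the right and CCNG1 to the left of 0 in both comparisons with empty vector, CDKN1A lies left for MYB and right for NMYB over MYB, and no point of the eRNA comparisons is filled.

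Divided by the exon length of each gene in GENCODE 29, the levels spanned about an order of magnitude. In MYB cells the order in CPM per kb was CDK4 (48.8 ± 1.58), CCND3 (35.5 ± 0.360) and CCNG1 (35.4 ± 0.801), CDK2 (28.5 ± 0.716), CDKN2C (20.1 ± 1.05), CCNE1 (15.2 ± 0.217), CDKN1B (12.9 ± 0.919), CCND2 (7.49 ± 0.432), CCNE2 (4.30 ± 0.196) and CDKN1A (3.73 ± 0.337) (SD, n = 3). In NMYB cells the order was the same for the first 8, from CDK4 at 50.3 ± 1.33 to CCND2 at 7.04 ± 0.591, and CDKN1A at 4.995 ± 0.342 was above CCNE2 at 4.14 ± 0.581. With empty vector CCNG1 at 45.8 ± 0.927 and CDK4 at 44.6 ± 1.37 came first, and CCNE1 at 16.2 ± 0.212 was above CDKN2C at 14.5 ± 1.87. The ranges of neighbours in these orders overlapped for CCND3 and CCNG1 in MYB cells and for CCNG1 and CDK4 with empty vector, and for no other pair. The places of CDKN2C and CCNE1 were thus exchanged between overexpression and empty-vector cells.

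The gene whose log2(CPM + 0.5) followed each member most closely over the 9 libraries was sought among the 15822 other genes. For CDKN2C it was ZNF428 (Pearson's r = 0.995), for CCNG1 it was CPOX, an enzyme of haem synthesis (r = 0.995), for CDK4 it was POMGNT1 (r = 0.989), and for CDKN1A it was CLIC1 (r = 0.980). The values for the other 6 members lay between 0.965 and 0.984. The libraries fall into groups and the highest of many values was taken, so these are descriptions.

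Around the members stand 83 other genes of the G1 machinery, in lists of cyclins and kinases, inhibitors, RB and E2F genes, ubiquitin ligases, p53 targets and mitogen-side regulators. Of the 76 tested in the MYB experiment, 8 rose and 10 fell in MYB cells, and 9 rose and 11 fell in NMYB cells. That is 23.7% and 26.3% of them, near the 22.3% and 24.9% of all genes. BTG2, an antiproliferative p53 target, fell the most of these in both, at 21.5 ± 0.834 CPM in MYB cells and 22.8 ± 0.887 CPM in NMYB cells, against 37.3 ± 0.792 CPM with empty vector (log2 fold changes -0.79 and -0.71, adjusted p = 4.33e-08 and 2.95e-07). The death receptor gene TNFRSF10B fell with log2 fold changes of -0.50 and -0.46. Of the 16 p53 targets tested beside CDKN1A and CCNG1, 3 rose and 3 fell in MYB cells, and 4 rose and 3 fell in NMYB cells. Those that rose include AEN in MYB cells (log2 fold change 0.21, adjusted p = 0.00678) and GADD45A in NMYB cells (0.42, adjusted p = 1.69e-04), so the p53 targets did not move one way.

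Among 18 RB, E2F and DREAM genes, 2 rose and 2 fell in each comparison. E2F6, a repressive E2F, rose in MYB cells (log2 fold change 0.26, adjusted p = 0.00353) and E2F5 fell (-0.34, adjusted p = 0.0447), while the pocket protein gene RBL2 fell in NMYB cells (-0.34, adjusted p = 8.15e-04). The mitogen-side gene with the largest rise in MYB cells was KLF4, at a low level of 0.777 ± 0.182 CPM in MYB cells against 0.325 ± 0.142 CPM with empty vector (adjusted p = 0.0272). In NMYB cells the inhibitor CDKN1C rose to 12.7 ± 0.661 CPM, against 8.93 ± 2.22 CPM with empty vector (log2 fold change 0.52, adjusted p = 0.0189), and the Mediator kinase CDK8 rose with a log2 fold change of 0.27. Between NMYB and MYB cells 1 of the 76 passed, MDM2, the ubiquitin ligase of p53, at 81.0 ± 3.48 CPM in NMYB cells and 95.8 ± 3.40 CPM in MYB cells (log2 fold change -0.24, adjusted p = 0.0338). The other D-type cyclin CCND1 and the kinase CDK6 averaged 14.7 and 269 CPM in MYB cells and 14.98 and 233 CPM in NMYB cells, against 15.6 and 252 CPM with empty vector, and passed in none of these comparisons.

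Overexpression of the eRNAs moved no member past the test at the level of summed bins. With 34kn, 0 of the 10 members were called, in a comparison in which 0% of 16116 genes were called by edgeR. At an unadjusted p below 0.05 there were 2 members and 3759 genes, and DESeq2 called 1289 genes and 0 members. With 34kp, 0 of 10 members were called, against 2.35% of 16662 genes, and 1 member and 2982 genes had an unadjusted p below 0.05. Groups did not overlap for 2 members with 34kn (29.2% of all genes) and for 3 with 34kp (23.8% of all genes). The share of reads of low alignment quality was 7.62% to 9.45% with 34kn overexpression against 8.94% to 10.5% in its controls, and 4.46% to 4.64% with 34kp overexpression against 7.15% to 8.35% in its controls. The part of that difference in the 34kp values was not tested.

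**Figure D3:**
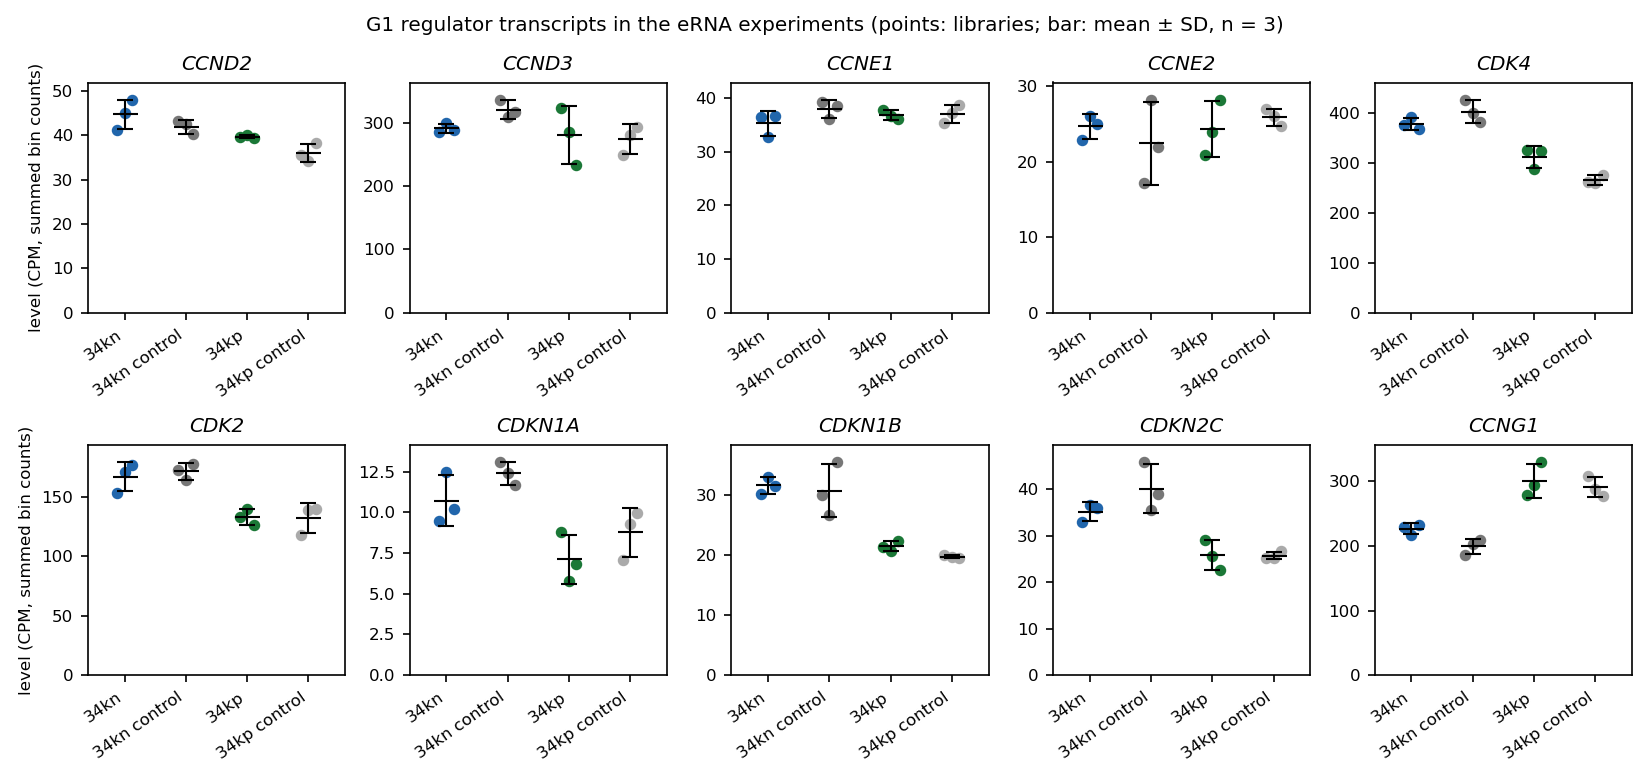
Level of each member (CPM of summed bin counts, vertical axes from 0) in each library of the eRNA experiments, with the mean and SD of 3 libraries as bars. CDK4 points lie higher with 34kp than in the 34kp controls, and CCNG1 points lie higher and CCND3 points lower with 34kn than in the 34kn controls.

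With 34kn, CCND3 stood at 285, 299.6 and 289 CPM, against 337, 309 and 318 CPM in the controls, without overlap (log2 fold change -0.15, SE 0.0586, adjusted p = 0.163). CCNG1 stood at 229.5, 217 and 233 CPM with 34kn, against 186, 202 and 209.5 CPM in the controls, also without overlap (log2 fold change 0.18, SE 0.0641, adjusted p = 0.137). CDKN1A averaged 10.7 ± 1.59 CPM with 34kn and 12.4 ± 0.703 CPM in the controls, and CDKN2C 35.1 ± 2.01 CPM with 34kn and 40.0 ± 5.29 CPM in the controls. Their 95% intervals for the fold, 0.714 to 1.04 and 0.750 to 1.02, include 1, so a difference was not detectable with these libraries. Those of the other 6 members lie within 0.815 and 1.36.

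With 34kp, CDK4 stood at 326, 287 and 325 CPM, against 262, 259 and 277 CPM in the controls, without overlap (log2 fold change 0.23, SE 0.0737, adjusted p = 0.135). CCND2, as the joined id, stood at 39.7, 40.0 and 39.4 CPM with 34kp, against 35.6, 34.3 and 38.3 CPM in the controls (log2 fold change 0.13, adjusted p = 0.461). CDKN1B stood at 21.4, 20.8 and 22.4 CPM with 34kp, against 20.04, 19.7 and 19.6 CPM in the controls (log2 fold change 0.12, adjusted p = 0.569). The inhibitor CDKN1A was low in both groups, at 8.76, 5.80 and 6.81 CPM with 34kp against 7.09, 9.28 and 9.96 CPM in the controls, and the groups overlapped. The 34kp libraries of CCND3 were spread apart, at 324, 285 and 233 CPM, against 249, 280.3 and 294 CPM in the controls.

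The difference between the eRNA effects passed the test for 1 member. For CDK4 the 34kn effect minus the 34kp effect was -0.32 on the log2 scale (SE 0.0923, adjusted p = 0.0483, interaction over 12 libraries), in a test that called 6.36% of 17323 genes (3.53% lower). CDK4 stood at 376, 392 and 369 CPM with 34kn against 427.5, 399.7 and 382.5 CPM in its controls, so its 2 effects point to opposite sides of 0 and neither passed on its own. The call was lost in 9 of the 12 fits that leave out a library, with adjusted p of 0.0520 to 0.120, and it held without 34kn control 2, 34kp overexpression 2 or 34kp overexpression 3. CDK4 averaged 403 ± 22.7 CPM in the 34kn controls and 266 ± 9.30 CPM in the 34kp controls. Each eRNA had controls of its own, so a difference between the eRNAs and one between their experiments cannot be told apart.

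Among the 83 surrounding genes, 0 of 78 tested passed with 34kn, and 2 of 77 rose and 6 fell with 34kp. That is 0% with 34kn, as over all genes, and 10.4% with 34kp, against 2.35% of all 16662 genes. The lists were chosen with earlier results of these data known, so these shares are descriptions. CCND1, the D-type cyclin outside the members, rose to 19.9 ± 0.196 CPM with 34kp, against 11.9 ± 1.64 CPM in the controls (log2 fold change 0.73, adjusted p = 0.0104). STAT5A, a transcription factor downstream of BCR-ABL1 in these cells, rose with a log2 fold change of 0.56 (adjusted p = 0.00394). Cyclin G2 (CCNG2), a relative of CCNG1, fell to 2.83 ± 0.372 CPM with 34kp, against 5.41 ± 0.505 CPM in the controls (log2 fold change -0.94, adjusted p = 0.0155). FOXO3, a transcription factor that switches on CDKN1B in other cells, fell with a log2 fold change of -0.79 (adjusted p = 0.00272), and TP53INP1 with one of -0.88 (adjusted p = 0.0304). In the interaction test 7 of 78 were higher and 5 lower, which is 15.4%, against 6.36% of all 17323 genes. On the log2 scale CCNG2 was at 1.48, TP53INP1 at 1.02, FOXO3 at 0.99, CCND1 at -0.97, STAT5A at -0.61 and AEN at -0.59. Their adjusted p ran from 4.86e-04 (FOXO3) to 0.0316 (AEN).

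Exon usage asks whether a bin changed more or less than its gene. Of the 288 bins of the members, 185 were tested with 34kn and 12 were called, all with lower usage, which is 6.49% of those tested against 0.794% of all 216197 bins tested. Lower usage made up nearly all of the calls over all genes too (0.772% of bins). Of the 12, 6 adjacent bins belong to CCNG1 (bins 5 to 10), 5 adjacent bins to CDK2 (bins 2 to 6) and 1 to CCND3 (bin 28). Bins are numbered as deposited. Neighbours can share reads, so these are taken as 3 stretches and not as 12 separate findings. The CCNG1 and CDK2 stretches lie among the low-numbered bins of their genes, which have 39 and 33 bins. A difference between libraries in coverage along the genes was not tested. Bin coordinates were not analysed here.

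In CCNG1 bin 6 there were 26, 29 and 45 reads with 34kn, against 319, 57 and 130 reads in the controls. As a share of the gene's bin count this was 0.316%, 0.345% and 0.499% with 34kn, against 4.45%, 0.723% and 1.72% in the controls. The groups did not overlap, but the 3 controls differed among themselves by more than the lowest of them differed from the 34kn libraries, with control 1 the highest. The log2 usage change was -2.52 (adjusted p = 2.54e-05), and the bin was called with each library left out in turn (adjusted p of at most 0.0164), as was bin 5. Bins 7 and 8 were called in 4 of the 6 such fits, bin 9 in 3 and bin 10 in 1.

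In CDK2 bin 3 there were 33, 28 and 38 reads with 34kn, against 162, 50 and 112 reads in the controls, which is 0.601%, 0.423% and 0.555% of the gene's bin count with 34kn, against 2.44%, 0.784% and 1.75% in the controls. Control 1 was again the highest and control 2 the lowest of the controls. The log2 usage change was -1.67 (adjusted p = 1.08e-04), and the bin was called in all 6 fits that leave out a library. Bins 4 and 5 were called in 5 of the 6, bin 6 in 3 and bin 2 in 1. CCND3 bin 28 had 163, 185 and 222 reads with 34kn, against 494, 244 and 290 reads in the controls (log2 usage change -0.72, adjusted p = 0.0469), was called in 1 of the 6, and did not pass with limma (adjusted p = 0.121). CDK2 bin 2 and CCNG1 bin 10 also did not pass with limma (adjusted p = 0.227 and 0.0698), and the other 9 bins did. In CDK2 bin 6 the groups overlapped, with 1.15%, 0.876% and 1.46% of the gene's bin count with 34kn against 3.67%, 1.43% and 2.64% in the controls. Of the 7 members with no called bin, CDKN1B came nearest with bin 11, which held 8.66%, 11.4% and 13.1% of the gene's bin count with 34kn against 23.9%, 14.2% and 15.9% in the controls (adjusted p = 0.0953). Without 34kn control 1, the library with the highest shares, 7 member bins were called. Without 34kn overexpression 1 and without 34kn overexpression 2 there were 5 and 4, and without 34kn control 2 there were 18.

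**Figure D4:**
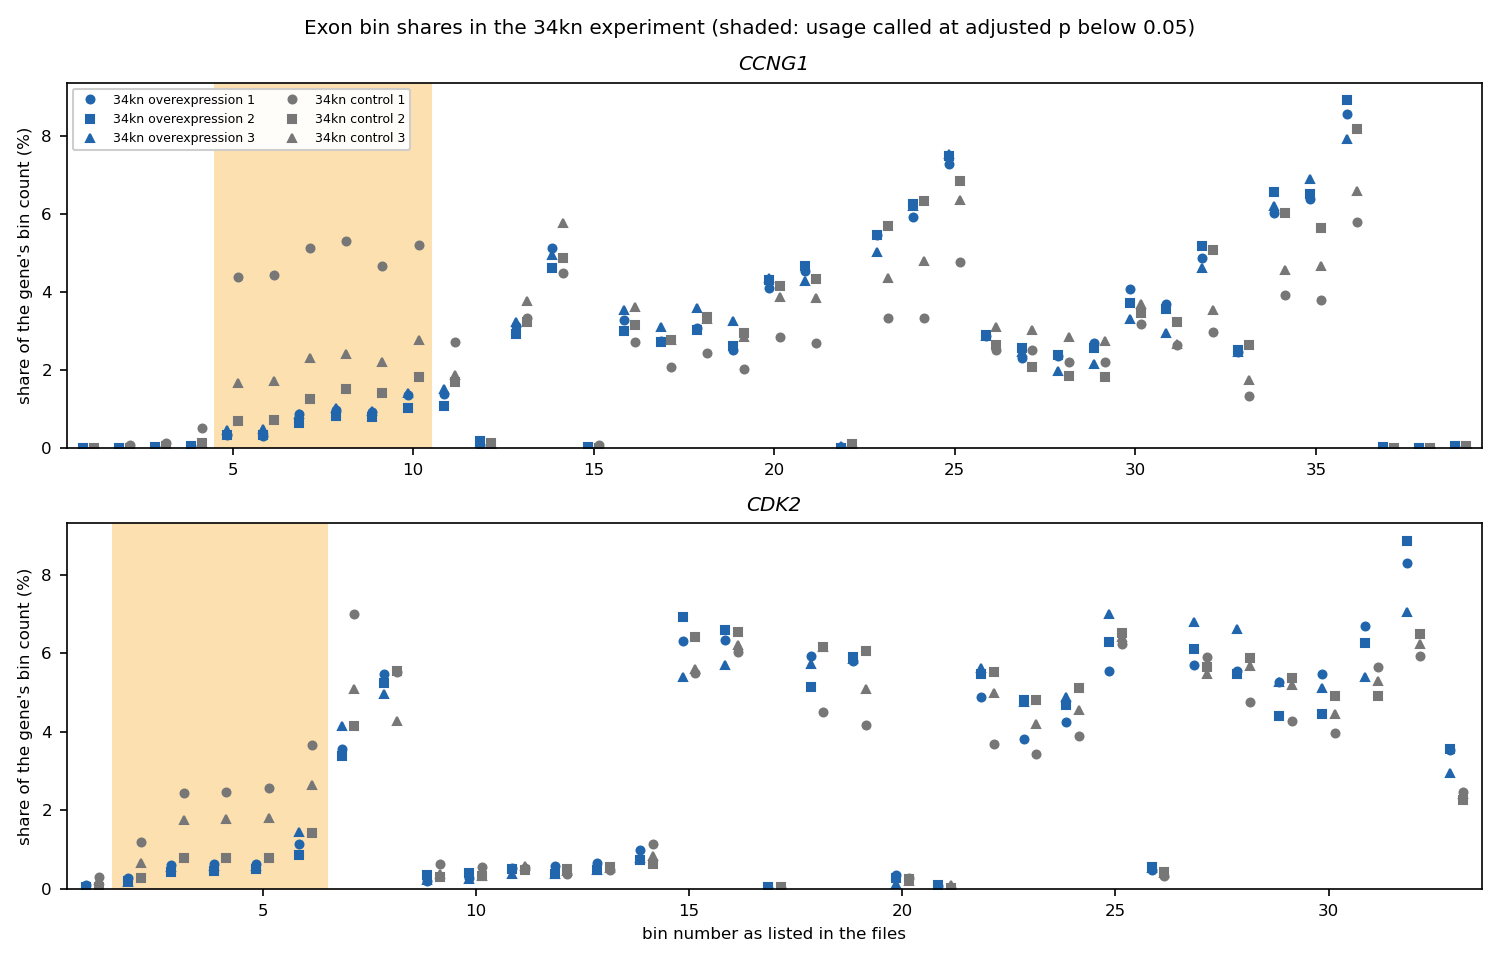
Share of each bin in the gene's bin count (percent, vertical axes) along the bins of CCNG1 and CDK2 in each library of the 34kn experiment. Shading marks the called bins 5 to 10 of CCNG1 and 2 to 6 of CDK2, where control 1 lies at the top and the 34kn overexpression points lie below all controls except in CDK2 bin 6, where overexpression 3 is above control 2.

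With 34kp, 181 member bins were tested and 0 were called, in a test that called 0.00862% of 220442 bins, and 6 had an unadjusted p below 0.05. CCNG1 bin 6 held 2.16%, 0.953% and 0.359% of the gene's bin count with 34kp, against 0.161%, 0.580% and 0.804% in the controls, so the groups overlapped and the libraries of each group were spread over a several-fold range. Without 34kp overexpression 3, 2 CCNG1 bins were called. The stretch in which the 34kn groups differed was thus also one in which replicates of the 34kp groups differed among themselves.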

How the data were processed

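Libraries were made with a TruSeq kit from 1 µg of total RNA, per the labels' protocols. The authors deposited raw counts: a table of gene counts for 9 libraries and a file of exon bin counts for each of 12 libraries. Per the submitters' processing notes, Trimmomatic 0.93, STAR 2.7.10a, HISAT2 2.2.1, featureCounts 2.0.1 and GRCh38 were used. These sources give no annotation release, strand setting or bin counter, so overlapping and antisense genes cannot be told apart. Summary lines without a bin were dropped from totals and tests.

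The test was that of edgeR 4.0.16 under R 4.3.3 (TMM, filterByExpr with a minimum count of 10, two-sided quasi-likelihood test with robust shrinkage). The threshold was a p below 0.05 after Benjamini-Hochberg adjustment over all genes tested. One model held the 9 libraries of the gene table, one model per eRNA experiment held its 6 libraries with bins summed per id, and the difference of the eRNA effects was tested as an interaction over 12 libraries. Bin usage was tested with diffSpliceDGE where a gene kept 2 or more bins. Alternatives were RLE scaling, no filter, DESeq2 1.42.0, limma 3.58.1, a replicate block, other sets of libraries or bins, and leaving out each library. The scripts were tested on simulated data. Over the 21 within-group pairs of libraries, the chi-square per degree of freedom was 1.59 to 8.04 in the gene table, beyond sampling noise. In the bin sums it was 4.85 to 51.7. Reads counted in several bins can raise it there, so the 2 ranges are not comparable. All members are described. Of the other genes, the up to 3 called genes with the largest rise and the largest fall are named in each comparison, beside CCND1, CDK6, CDKN2A and CDKN2B, which were added as close relatives. The members and the gene lists were chosen with earlier results of these data known. Intervals and limits of 0 counts (3 counts) cover counting error or these libraries only.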

Additional observations from a re-analysis of the deposited data

Results flagged for a closer look

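For CDKN1A the cells labelled NMYB and MYB differed in their change against the shared empty vector, by 0.41 on the log2 scale (adjusted p = 0.0359, higher in 3 of 3 NMYB libraries than in every MYB library). For CDK4 the 34kn effect differed from the 34kp effect, each against its own controls, by -0.32 on the log2 scale (interaction test, adjusted p = 0.0483). Both differences were past the threshold by a small margin, and both were lost when single libraries were left out, as given with each gene above.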

How the results depend on the processing

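Of 740 member values under alternative settings or without a library, 696 kept their direction and their side of the threshold, or changed sign in 38 cases while uncalled in both, 29 lost a call, 15 gained one and 0 called values reversed. The calls of CDKN2C and CCNG1 against empty vector, and of CDKN1A in MYB cells, held in every setting run. Depth limits the low members, CDKN1A and CCNE2, and the bins with few reads, and 3 libraries a group limit all of them.

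In NMYB cells CCND3 lost its call under RLE (adjusted p = 0.0572), with no filter (0.384), with DESeq2 (0.0789) and with only the 6 libraries compared (0.0819), and CDK4 lost its call with no filter (0.0757). CDKN1A in NMYB against MYB lost its call with only the 6 libraries compared (0.0718). CDK4 in MYB cells gained a call under RLE (0.0472) and with only the 6 libraries (0.0245). With no filter, CDKN1B gained a call in MYB cells (0.0205) and CDK2 in NMYB cells (0.0195). The cause of these changes was not tested.

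The NMYB against MYB comparison called 181 genes, against 656 with no filter, 399 with DESeq2 and 60 with only the 6 libraries, and its 1 called member became 2 with DESeq2 (CCND3 added) and 0 with only the 6 libraries. Its split of 82 higher and 99 lower genes became 68 and 127 under RLE. The 34kn comparison called 0 genes, against 1572 with no filter and 1289 with DESeq2. The 34kp comparison called 392 genes, against 997 with no filter, 976 with DESeq2 and 817 with all 12 bin libraries in one fit. The interaction called 1102 genes, against 2085 with no filter and 2056 with DESeq2.

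With a library left out, the genes called ranged over 2491 to 2889 for MYB, 2711 to 3900 for NMYB, 0 to 323 for NMYB against MYB, 0 to 2982 for 34kn, 46 to 1175 for 34kp and 380 to 2747 for the interaction. The 34kn count was 447 without control 1 and 2982 without control 2. The members called ranged over 3 to 4 for MYB, 2 to 4 for NMYB (2 without empty vector 1), 0 to 1 for NMYB against MYB and 0 to 1 for the interaction, and member bins over 4 to 18 for 34kn and 0 to 2 for 34kp.

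Replicate numbers are shared by the groups, and same-numbered libraries form 15 pairs. Their correlation was -0.0357 to 0.151 in the MYB experiment, -0.0676 to 0.00422 with 34kn and -0.306 to 0.00430 with 34kp. The numbers were not taken as pairs, though these values do not exclude a weak pairing in the MYB experiment. With a replicate block, genes called were 4342 for MYB, 4713 for NMYB, 1184 for NMYB against MYB, 0 for 34kn, 71 for 34kp and 105 for the interaction. With the block, the members called were 5 for MYB (CDK4 and CDKN1B added), 6 for NMYB (CDK2 and CDKN1B added), 2 for NMYB against MYB (CCND3 added) and 0 for the interaction, and member bins were 11 for 34kn.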
